A study of Mus musculus with 6 samples.

Results

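Transcripts of 10 genes of the Bcl2 family were followed in RNA-Seq libraries of long-term hematopoietic stem cells (LT-HSCs). The genes were chosen by name as a family, with earlier results of these data known, and no measured value sets which genes belong. They are the anti-apoptotic genes Mcl1, Bcl2 and Bcl2l1, the effector genes Bax and Bak1, and the BH3-only genes Bcl2l11, Bid, Bad, Bbc3 and Pmaip1. Of the 10 genes, 7 were among the 12179 genes of the deposited normalized table. Bad, Bbc3 and Pmaip1 had no entry there, and all 10 had read counts in the table of 27179 genes. In edgeR's filter on low counts, 5 of the 10 were kept (Mcl1, Bcl2, Bcl2l1, Bak1 and Bid) among 8195 genes.

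LT-HSCs, defined as CD150+CD48-LSK cells, were sorted from the bone marrow (BM) of C57BL/6 mice, with 3 WT and 3 Foxm1 HET libraries at 8 weeks of age. In Foxm1 HET mice, 1 floxed allele of Foxm1, a forkhead transcription factor of the cell cycle, is deleted by Cre. Elsewhere in the study, heterozygous mice carry either Tie2-Cre, driven by a promoter active in endothelial and blood cells, or Mx1-Cre, which is switched on by injections of poly(I:C), and the controls are Foxm1 fl/+ mice without Cre. For the RNA-Seq the driver was not given, the controls are labelled WT, and the titles of the heterozygous libraries name only the floxed allele. The labels give no treatment for any sample. The study also asked, of Foxm1 heterozygous mice outside the RNA-Seq, whether cell death of HSCs is altered.

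BCL2 family proteins decide whether the outer membrane of the mitochondrion is opened, the step that releases cytochrome c and starts the caspases. Anti-apoptotic members hold the effectors BAX and BAK in check, and BH3-only proteins are sensors of stress that bind the anti-apoptotic members or activate the effectors. Mouse HSCs are known to depend on Mcl1, and the BH3-only proteins are largely regulated after transcription as well as by it, so that a transcript level is not a measure of protein or of cell death.

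The deleted gene itself had 1182, 2615 and 2942 reads in WT replicates 1 to 3. In the same order it had 659, 5 and 742 reads in the Foxm1 HET replicates. Foxm1 was thus lower in each Foxm1 HET library than in each WT library, as were 4.55% of all genes tested. The log2 fold change of Foxm1 was -3.30 (SE 2.33) with an adjusted p of 0.961 in edgeR. Libraries held 14573002 to 25798509 counted reads and 4467 to 9894 genes with at least 10 reads. Foxm1 HET replicate 2 was the lowest in both, and 50.1% of tested genes had 10 or fewer reads in it. Of 8195 tested genes, 69.3% had fewer than 10 reads in at least 1 library. Of 14 LT-HSC marker genes, 8 had at least 10 reads in all 6 libraries, whereas Ly6a had 2 to 4 reads in 3 libraries and Slamf1 had 0 to 8 reads in 4 libraries. Cd48, which the gate excludes, had 6608 reads in WT replicate 2 and 1 to 1285 in the others. Neutrophil markers summed to 840 to 21200 CPM in every library. CPM here are counts scaled to library size multiplied by a TMM factor. That factor ran from 0.453 in Foxm1 HET replicate 2 to 1.67 in Foxm1 HET replicate 3. In bulk samples, fewer cells of a type and less RNA per cell cannot be told apart.

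The promoters of the pair of anti-apoptotic genes with the most reads are shown because Foxm1 acts on DNA as a transcription factor. The 250 bases before the start of each gene were taken from RefSeq GRCm38.p6. Both strands were searched for TAAACA (the forkhead core), TTTGAA (the CHR element of cell cycle promoters, to which the MuvB complex recruits Foxm1), CCAAT (the CCAAT box) and GGGCGG (the GC box). Matches are in capitals.
Bcl2 promoter, chr1:106714291-106714540, minus strand: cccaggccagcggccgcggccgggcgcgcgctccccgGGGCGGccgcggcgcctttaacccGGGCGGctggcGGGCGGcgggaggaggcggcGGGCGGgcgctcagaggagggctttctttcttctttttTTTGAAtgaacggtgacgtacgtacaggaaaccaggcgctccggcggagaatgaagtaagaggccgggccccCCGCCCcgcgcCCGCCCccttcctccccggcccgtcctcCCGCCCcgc
Mcl1 promoter, chr3:95658471-95658720, plus strand: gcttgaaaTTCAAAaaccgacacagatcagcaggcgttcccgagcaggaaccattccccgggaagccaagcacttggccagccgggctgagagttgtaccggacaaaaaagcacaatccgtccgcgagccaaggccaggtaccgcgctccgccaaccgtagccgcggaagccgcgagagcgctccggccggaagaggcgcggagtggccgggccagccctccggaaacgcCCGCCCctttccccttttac
The Bcl2 window held 1 CHR match and 7 GC boxes in a sequence of 74.8% G and C. The Mcl1 window held 1 CHR match and 1 GC box in a sequence of 64.4% G and C. No match overlapped another, and neither window held TAAACA or CCAAT. Of 32851 promoter windows of the same length, 16% held the CHR letters, 32.7% a GC box, 12% TAAACA and 33.8% CCAAT. Among the windows found for 9 of the 10 genes, TAAACA was present in 1 window of Bcl2l11 and 1 of Bbc3. These matches describe letters in a window and show no binding.

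Mcl1 was the most abundant member. It is a short-lived guardian protein that holds BAK and BIM, and the gene lies at chr3:95658721-95663179 on the plus strand. Mcl1 had 70933, 9342 and 11062 reads in WT replicates 1 to 3 and, in the same order, 36680, 16073 and 45221 reads in the Foxm1 HET replicates. On the TPM scale, which divides reads by gene length and scales each library to the same sum, the WT libraries stood at 2206, 270 and 296 and the Foxm1 HET libraries at 865, 695 and 1199. Between 95.3% and 99.8% of the genes with reads in a library lay below Mcl1 in it. The genotypes overlapped, since WT held both the highest and the lowest library. Foxm1 HET over WT gave a log2 fold change of 0.07 (SE 1.27, 95% interval -2.43 to 2.57) and did not pass the test (edgeR adjusted p = 0.998). The sign of this value was negative with scaling by library size only (-0.04) and without WT replicate 2 (-0.40), WT replicate 3 (-0.29) or Foxm1 HET replicate 2 (-0.44), and it was 1.47 without WT replicate 1. Of the exon bases of Mcl1, 23% overlap a gene on the opposite strand that had at most 29 reads in a library, and the use of strand in counting was not given.

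Bcl2, the founding survival gene of the family, separated the genotypes. The gene lies at chr1:106538179-106714290 on the minus strand. It had 4957, 2411 and 5692 reads in WT replicates 1 to 3 and, in the same order, 1430, 13 and 52 reads in the Foxm1 HET replicates. The highest of the Foxm1 HET values was below the lowest of the WT values, and replicate 1 stood well above the other Foxm1 HET libraries. On the log2 CPM scale the WT mean was 7.67 ± 0.88 and the Foxm1 HET mean was 2.23 ± 2.62 (each SD, n = 3). The difference of the means was -5.44, and the two-sided exact permutation test gave p = 0.1, the smallest that 3 libraries against 3 allow. Of all genes tested, 8.68% had log2 CPM values that did not overlap between the genotypes, and 4.55% did so in the lower direction.

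In the edgeR fit the log2 fold change of Bcl2 was -4.07 (SE 2.09, 95% interval -8.17 to 0.03), with an unadjusted p of 0.0516 and an adjusted p of 0.832. A value this low or lower was found for 6.27% of all genes tested. Bcl2 thus did not pass the test. Its values under 15 other settings ran from -7.11 to -3.37, with adjusted p from 0.132 (DESeq2) to 1. The lowest value came without Foxm1 HET replicate 1. Because each Foxm1 HET value was below each WT value, leaving out a library could not turn the sign. The constant direction therefore adds no separate evidence. Without the shallow Foxm1 HET replicate 2 the log2 fold change was -3.49 (SE 1.95, edgeR unadjusted p = 0.0855). The other low library, replicate 3, had 9426 genes with at least 10 reads. The part of depth or of missed transcripts in the low Bcl2 counts was not tested.

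Markers of lymphocytes, which express Bcl2 highly, were read beside it. Over 4 B cell markers the summed level was 43.7, 12.8 and 0.188 CPM in WT replicates 1 to 3, against 4.46, 2.78 and 0 CPM in the Foxm1 HET replicates. WT replicates 1 and 2 were above the other libraries, and WT replicate 3, which had the most Bcl2 reads, was within the range of Foxm1 HET. The WT sums were reads of Cd79b alone (967, 289 and 3 reads), Pax5 had 18 reads in Foxm1 HET replicate 2 and 0 elsewhere, and Cd79a and Ms4a1 had 0 reads in all 6 libraries. Over 4 T cell markers the summed level was 0.226, 126.5 and 6.19 CPM in WT replicates 1 to 3, against 3.96, 0.463 and 18.9 CPM in the Foxm1 HET replicates, and the genotypes overlapped. The highest T cell sum, in WT replicate 2, came with 2859 reads of Lck in the WT library with the fewest Bcl2 reads, and Cd3d and Cd3g had 0 reads in all 6 libraries. The part of lymphocytes in the Bcl2 difference was not tested. Of the exon bases of Bcl2, 9.78% overlap a gene on the opposite strand with 0 reads in all libraries, and 5.25% of its 50-base stretches recur in other genes.

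Bcl2l1, which encodes the survival protein BCL-XL, was near the limit of detection. The gene is at chr2:152780668-152831682, minus strand. It had 0, 143 and 10 reads in WT replicates 1 to 3 and, in the same order, 39, 0 and 4 reads in the Foxm1 HET replicates. Each genotype held a library with 0 reads, which with a floor of 3 reads allows up to 0.136 CPM in WT replicate 1 and 0.463 CPM in Foxm1 HET replicate 2, counting error only. The log2 fold change was -2.59 (SE 2.90, edgeR adjusted p = 0.998), and it was 0.27 without WT replicate 2, the library with most of the reads.

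**Figure D1:**
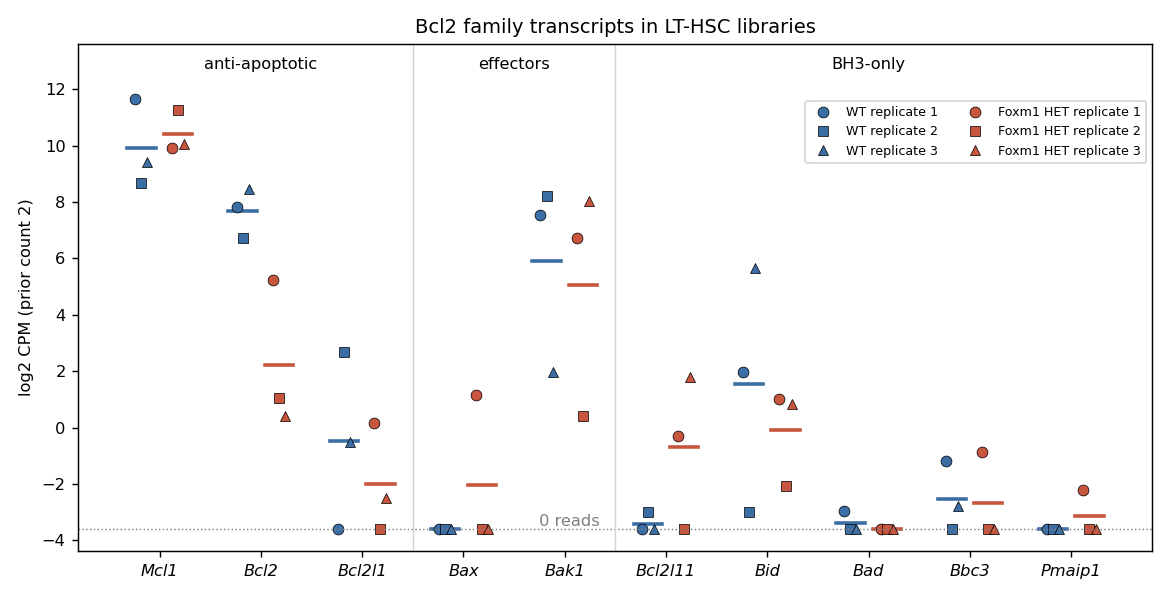
Level of each of the 10 genes in each library as log2 CPM with a prior count of 2 (vertical axis), with WT in blue, Foxm1 HET in red and a bar at each group's mean (n = 3). The 3 WT values of Bcl2 lie above its 3 Foxm1 HET values, Mcl1 is high in all 6 libraries, and several BH3-only genes lie on the dotted line of 0 reads.

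The effector genes were unequal. Bak1 encodes BAK, which sits in the mitochondrial membrane and forms the pore, and the gene is at chr17:27019812-27028626 on the minus strand. It had 4085, 6759 and 61 reads in WT replicates 1 to 3 and, in the same order, 3978, 8 and 10888 reads in the Foxm1 HET replicates. Each genotype thus had 1 library with few reads, and the genotypes overlapped. The log2 fold change was -0.41 (SE 1.79, 95% interval -3.91 to 3.09, edgeR adjusted p = 0.998). This sign was turned by scaling with upper quartiles (0.0035) or library size only (0.22), and without WT replicate 2 (0.33) or Foxm1 HET replicate 2 (0.20). Of the 50-base stretches of Bak1, 17.1% recur in transcripts of other genes, so its count is uncertain.

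Bax encodes the second pore-forming effector, which moves from the cytosol to mitochondria when activated. The gene is at chr7:45461695-45466898, minus strand. It had 0 reads in each WT library and 81, 0 and 0 reads in Foxm1 HET replicates 1 to 3. Thus Bax was detected in 1 of 6 libraries, the Foxm1 HET library with the most genes at 10 or more reads, and it was not tested. A count of 0 in a WT library allows up to 0.133 to 0.188 CPM, and the mean in Foxm1 HET was 0.709 CPM.

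Among the BH3-only genes, only Bid was kept by the filter. BID links death receptors to mitochondria after cleavage by caspase-8, and the gene is at chr6:120893119-120916820 on the minus strand. Bid had 84, 1 and 810 reads in WT replicates 1 to 3 and, in the same order, 73, 1 and 72 reads in the Foxm1 HET replicates. WT replicate 3 stood above the other libraries, which overlapped. The fitted log2 fold change was -3.83 (SE 3.25, 95% interval -10.2 to 2.54, edgeR adjusted p = 0.985), and it was -0.63 without WT replicate 3.

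Bcl2l11 encodes BIM, the activator that responds to loss of growth factors, and lies at chr2:128126038-128162547, plus strand. It had 0, 1 and 0 reads in WT replicates 1 to 3 and, in the same order, 28, 0 and 143 reads in the Foxm1 HET replicates. Reads above the floor of 3 were thus found in 2 Foxm1 HET libraries and in no WT library. Those 2 libraries had the most genes with at least 10 reads (9894 and 9426, against 5963 to 7857 in WT). The part of this in the pattern was not tested. The genotypes overlapped at 0 reads of Bcl2l11 in Foxm1 HET replicate 2. The two-sided exact permutation test on log2 CPM gave p = 0.4. Because it was not kept by the filter, no fold change was fitted.

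The other BH3-only genes were hardly read. Bad, whose product is held inactive by survival signaling, had 1 read in WT replicate 1 and 0 reads elsewhere (chr19:6941855-6951893, plus strand). Bbc3, the p53 target that encodes PUMA, had 8, 0 and 1 reads in WT replicates 1 to 3 and, in the same order, 18, 0 and 0 reads in the Foxm1 HET replicates (chr7:16309583-16318334, plus strand). Pmaip1, which encodes NOXA, a partner of MCL1, had 5 reads in Foxm1 HET replicate 1 and 0 reads elsewhere (chr18:66458604-66465558, plus strand). Counts this low could not show a difference in these genes, and the part of depth in them was not tested. Of the exon bases of Bad, 35.6% overlap a gene on the opposite strand that had up to 195 reads in a library.

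Read per length, the family was dominated by Mcl1. It made up 88.2%, 41.7% and 72.6% of the summed TPM of the 10 genes in WT replicates 1 to 3 and 81.8%, 99.9% and 70.2% in the Foxm1 HET replicates. Mcl1 was the highest member in 5 of 6 libraries, and Bak1 was above it in WT replicate 2, where it made up 52.5%. The share of Bcl2 was 2.77%, 4.84% and 16.8% in the WT libraries, against 1.44%, 0.0364% and 0.0363% in the Foxm1 HET libraries. The ratio of Mcl1 to Bcl2 TPM was 31.8, 8.61 and 4.32 in the WT libraries, against 57, 2750 and 1930 in the Foxm1 HET libraries, and the genotypes did not overlap in this ratio. It follows from the same Bcl2 reads and adds no separate evidence.

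**Figure D2:**
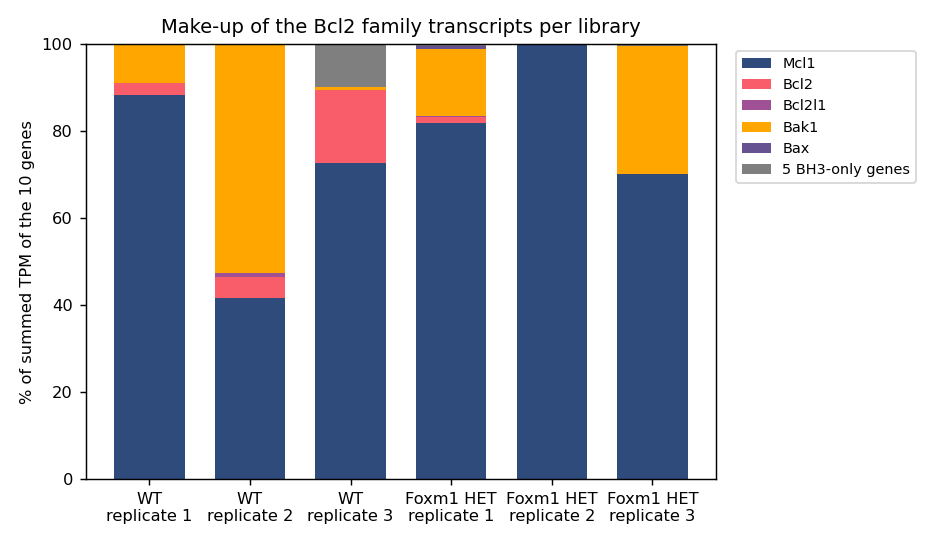
Share of each gene in the summed TPM of the 10 genes (vertical axis, percent) in each library (stacked bars), with the 5 BH3-only genes summed. Mcl1 makes up 41.7% to 99.9% and the red Bcl2 band is thinner in each Foxm1 HET library than in each WT library.

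In WT the order of mean TPM was Mcl1 (924 ± 1110), Bak1 (188 ± 171), Bcl2 (56.4 ± 21.7), Bid (14.9 ± 21.8) and Bcl2l1 (2.16 ± 3.41, SD, n = 3 each), with the rest at 0.162 or less. In this order each gene's range over libraries overlapped that of the next. In Foxm1 HET the order was Mcl1 (920 ± 257), Bak1 (222 ± 256), Bcl2 (5.35 ± 8.52), Bax (2.56 ± 4.43), Bid (2.26 ± 1.90) and Bcl2l11 (1.03 ± 1.40). Here the lowest Mcl1 library (695 TPM) was above the highest Bak1 library (503 TPM), and the other neighbours overlapped. Mitochondrial ribosomal RNA took 20.1% to 26.1% of reads. Without it the mean TPM of Mcl1 was 1709 in WT and 1636 in Foxm1 HET. That of Bcl2 was 101 in WT and 9.95 in Foxm1 HET.

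The number of members with at least 10 reads was 4, 4 and 5 for WT replicates 1 to 3, against 8, 2 and 5 for the Foxm1 HET replicates, which have 7857, 6838, 5963, 9894, 4467 and 9426 genes at that level. The library with most members was that with most genes, and the library with fewest members was that with fewest genes. Their part in the pattern was not tested.

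Over the 5 tested members, 0 had an adjusted p under 0.05 in edgeR, where 0.329% of all genes tested (27 of 8195) passed. At an unadjusted p under 0.05 the members' count was again 0 in edgeR, where 6.03% of all genes passed, while DESeq2 gave 2 members (Bcl2 and Bid), with 10.1% of all genes, and 0 at an adjusted p under 0.05. With limma-voom, Bcl2 was the 1 member at an unadjusted p under 0.05, with 3.31% of all genes, and 0 members had an adjusted p under 0.05, with 0.0488% of all genes. Of the 5, 4 had a negative log2 fold change, as did 54.6% of all genes tested. Their median was -2.59, and that of all genes tested was -0.261. The median standard error of all genes was 2.59 on the log2 scale, and those of the 5 members ran from 1.27 to 3.25.

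**Figure D3:**
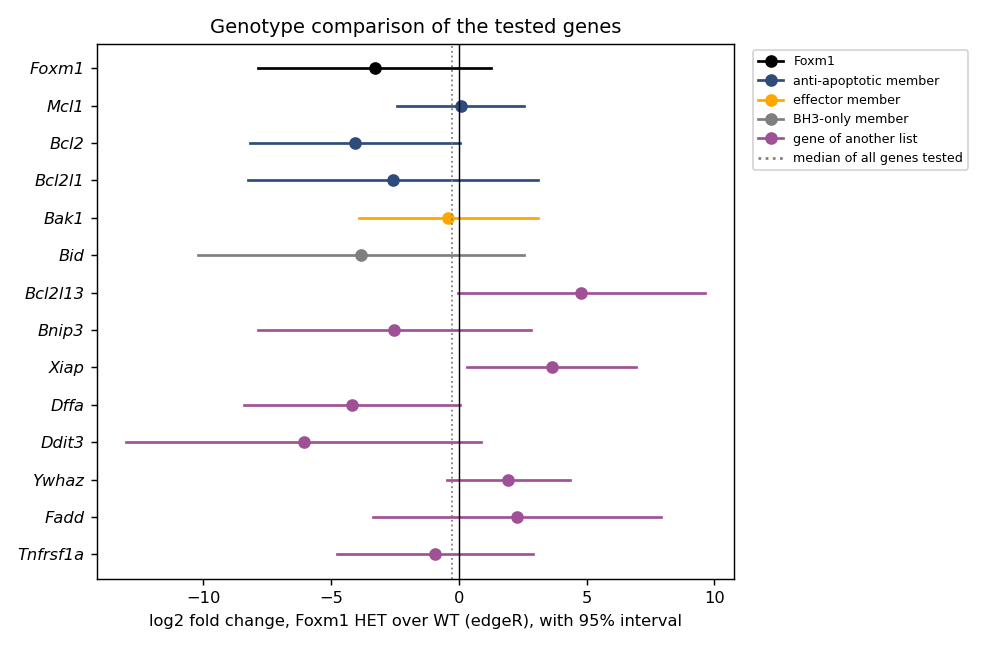
Log2 fold change of Foxm1 HET over WT from edgeR (horizontal axis) with its 95% interval, for Foxm1, the 5 tested members and 8 genes of the other lists. The interval of each member reaches past 0, and that of Bcl2 ends at 0.03.

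The deposited log2 values also separated the genotypes for Bcl2. They were 6.05, 4.61 and 6.23 for WT replicates 1 to 3, against 2.67, 2.77 and 0.41 for the Foxm1 HET replicates, again without overlap. Of the 12179 genes, 9.64% did not overlap and 3.77% did so in the lower direction. The difference was -3.68 (SE 1.01), with an unadjusted p of 0.00845 and an adjusted p of 0.814 in limma. At an unadjusted p under 0.05 were 576 genes (4.73%), Bcl2 alone among the 7 members, and 0 genes at an adjusted p under 0.05. The 13 reads of Bcl2 in Foxm1 HET replicate 2 carry a higher deposited value (2.77) than its 1430 reads in replicate 1 (2.67). Their ranks by TPM in the library were 5055 and 5111, so that the deposited value follows the rank within a library. The spread between the Foxm1 HET libraries is therefore narrower in these values (SD 1.33) than in log2 CPM (SD 2.62). Likewise, the 8 reads of Bak1 in Foxm1 HET replicate 2 carry a value of 3.33, above the 2.97 of 61 reads in WT replicate 3.

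**Figure D4:**
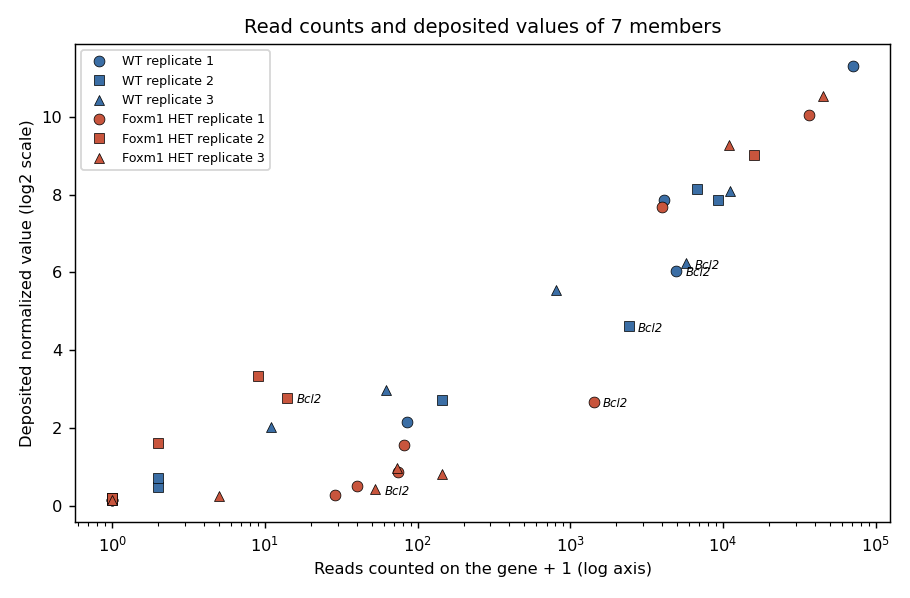
Reads of the 7 members of the normalized table plus 1 (horizontal log axis) against their deposited log2 values (vertical axis), with a point for each gene and library. The Bcl2 points are named, and those of 13 and 1430 reads in Foxm1 HET lie at nearly the same height.

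Other genes of the Bcl2 family were mostly silent or thin. Of 15 such genes, 8 had 0 reads in every library, 3 were tested, and 0 passed an adjusted or unadjusted p of 0.05 in edgeR. Bcl2l13, a mitochondrial outer membrane protein that can act as a receptor for mitophagy, had 73, 12 and 167 reads in WT replicates 1 to 3 and, in the same order, 5743, 502 and 7093 reads in the Foxm1 HET replicates. Each Foxm1 HET library was above each WT library. Of all genes tested, 8.68% did not overlap, counting both directions, and 4.55% of all genes did so in the lower direction. The log2 fold change of Bcl2l13 was 4.80 (SE 2.47), with an unadjusted p of 0.0516 and an adjusted p of 0.832 in edgeR. DESeq2 gave an adjusted p of 0.0425, at which level it called 2.37% of all genes tested, and edgeR's adjusted p ran from 0.538 to 1 over its other settings. Bnip3, a hypoxia-induced mitophagy receptor, had 51, 16 and 11 reads in WT replicates 1 to 3 and, in the same order, 23, 0 and 0 reads in the Foxm1 HET replicates, with a log2 fold change of -2.53 (SE 2.73, edgeR adjusted p = 0.998). Of its 50-base stretches, 47.2% recur in other genes, so its count is uncertain.

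**Figure D5:**
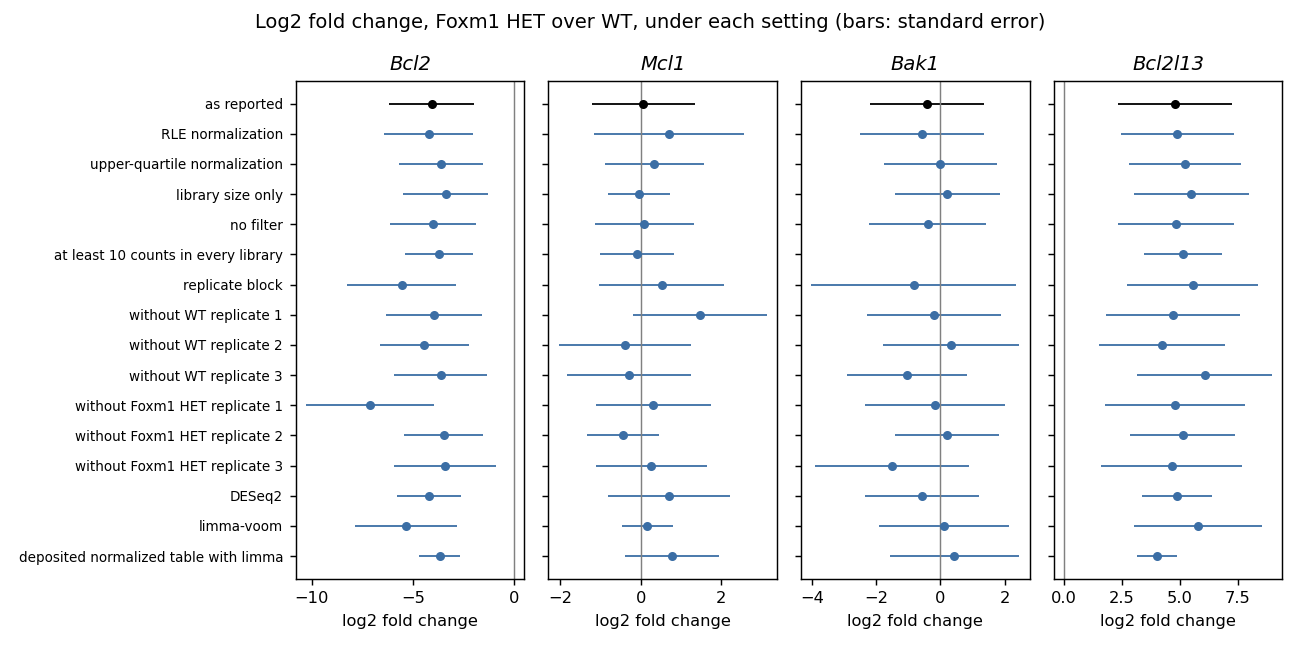
Log2 fold change of Foxm1 HET over WT (horizontal axes, bars are standard errors) of Bcl2, Mcl1, Bak1 and Bcl2l13 under each setting (rows), with the reported value in black. Bcl2 stays between -7.11 and -3.37, Bcl2l13 stays above 0, and the signs of Mcl1 and Bak1 change with the setting.

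Downstream of the mitochondrion, 18 of 21 genes of the apoptosis machinery were tested. Of these, 7 had positive and 11 negative log2 fold changes with a median of -0.337, and 0 passed the adjusted p. Xiap, the inhibitor of caspases, was the gene with an unadjusted p under 0.05 (0.0309, adjusted p = 0.745 in edgeR), as were 3.44% of all genes in the higher direction. It had 1030, 1384 and 1030 reads in WT replicates 1 to 3 and, in the same order, 2413, 12911 and 3930 reads in the Foxm1 HET replicates. Its log2 fold change was 3.64 (SE 1.69), and it was 0.50 without Foxm1 HET replicate 2, which held most of these reads and the fewest reads in all. Dffa, which encodes the inhibitor of the caspase-activated DNase, had a log2 fold change of -4.18 (SE 2.16, edgeR adjusted p = 0.844) that rested on 13568 reads in WT replicate 2 against 2 to 1053 reads in the others, and was 4.45 without that library.

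Of 27 regulators of the family, 25 were tested, 15 with positive and 10 with negative values, a median of 0.232, and 0 past an adjusted or unadjusted p of 0.05 in edgeR. Ddit3, which encodes the stress factor CHOP, an activator of Bcl2l11 and repressor of Bcl2, had 149, 133 and 996 reads in WT replicates 1 to 3 and, in the same order, 24, 0 and 18 reads in the Foxm1 HET replicates. Each Foxm1 HET library was below each WT library, as was found for 4.55% of all genes tested. The log2 fold change of Ddit3 was -6.08 (SE 3.54, edgeR adjusted p = 0.921). Of its exon bases, 7.81% overlap a gene on the opposite strand with up to 1886 reads in a library. Ywhaz, a 14-3-3 protein that binds phosphorylated BAD, had a log2 fold change of 1.94 (SE 1.23, edgeR adjusted p = 0.941), which was -0.16 without Foxm1 HET replicate 2. A gene on the opposite strand, with up to 197 reads in a library, overlaps 31.8% of the exon bases of Ywhaz. Of the 50-base stretches of Ywhaz, 15.2% recur in other genes, so its count is uncertain.

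Of 10 death receptor genes, 7 were tested, 3 with positive and 4 with negative values, a median of -0.2, and 0 past an adjusted or unadjusted p of 0.05 in edgeR. Fadd, the adaptor that brings caspase-8 to the receptors, had a log2 fold change of 2.29 (SE 2.87, edgeR adjusted p = 0.998). Tnfrsf1a, the main receptor of TNF, had a log2 fold change of -0.93 (SE 1.95, edgeR adjusted p = 0.998), which was 0.12 without WT replicate 2 and -6.05 without Foxm1 HET replicate 3.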

How the data were processed

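RNA-Seq was performed on sorted LT-HSCs of 3 WT and 3 Foxm1 HET mice. The authors aligned reads to GRCm38 with STAR 2.7.2b (submitters' processing notes, which also name limma) and deposited raw read counts per gene. The counting program, its use of strand and the treatment of duplicates are not given in the sources used here. The library kit is named differently in the labels (a stranded total RNA kit) and in the methods. The authors also deposited a normalized table on a log2 scale. Its values follow the rank of reads per length within each library.

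Libraries were grouped by the sample labels. Counts were fitted with edgeR 4.0.16 in R 4.3.3 (default filter on low counts, TMM, quasi-likelihood test, Benjamini-Hochberg adjustment over 8195 genes). The standard error is the log2 fold change over the square root of F, and log2 CPM used a prior count of 2. TPM was computed from counts and the deposited gene lengths. Single values were compared by a two-sided exact permutation test. DESeq2 1.42.0 and limma 3.58.1 (voom on the counts, and limma on the deposited log2 values) were alternatives, as were other scalings, filters, a replicate block and leaving out each library. Counts of 0 are given with a floor of 3 reads, which covers counting error only. The methods give 3 pairs of mice, and each library was taken as 1 mouse.

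The 10 genes and the 4 lists of neighbouring genes were chosen with earlier results of these data known. Named are Foxm1, the 10 genes and the 2 tested genes with the smallest p of each list, plus list genes with an adjusted p under 0.05 (0 found). Symbols missing from the normalized table were matched by gene ID to RefSeq GRCm38.p6. Protein sequences were not used here. A further B cell marker is not reported here, and the summed level of B cell markers leaves it out. Same-numbered libraries did not deviate together (correlations of 0.0162, -0.0253 and -0.0687), so the numbers were not taken as pairs.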

Additional observations from a re-analysis of the deposited data

How the results depend on the processing

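The count of members with an adjusted p under 0.05 was 0 under every setting tried. At an unadjusted p under 0.05 in edgeR, 1 of 2 tested members passed with at least 10 counts in every library. There 157 of 2516 genes passed. With the replicate block it was 1 of 5 members (108 of 8195 genes), and with limma-voom 1 of 5 (271 of 8195). It was 1 of 7 with limma on the deposited values (576 of 12179) and 2 of 5 with DESeq2 (829 of 8195). When 1 library was left out, 0 to 1 of the 5 or 6 tested members passed in edgeR, beside 433 to 626 of all genes. Over all genes the count at an adjusted p under 0.05, 27 as reported, was 10 with RLE scaling, 43 with upper quartiles, 7 with library size only, 36 without a filter, 0 with at least 10 counts in every library, 194 with DESeq2, 4 with limma-voom and 0 with limma on the deposited values. It ran from 0 to 29 when 1 library was left out, with 0 without WT replicate 1, WT replicate 2 or Foxm1 HET replicate 2 and 1 without WT replicate 3. With the replicate block the count was 0 and Bcl2 had a log2 fold change of -5.55 (edgeR adjusted p = 1). No source ties the library numbers to the pairs of mice, and the deviations of same-numbered libraries did not go together. DESeq2 gave no p for Xiap, Dffa, Ddit3 and Ywhaz, and of the named genes only Mcl1, Bcl2, Bcl2l13, Xiap and Ywhaz had at least 10 counts in every library.

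The sign of Mcl1 turned with library size only (-0.0431) and with at least 10 counts in every library (-0.10), and its values without 1 library ran from -0.44 to 1.47. That of Bak1 turned with upper quartiles (0.0035), library size only (0.22), limma-voom (0.11) and the deposited values (0.43), and its values without 1 library ran from -1.50 to 0.33. Bcl2l1 ran from -5.14 to 0.27, Dffa from -6.06 to 4.45, Ywhaz from -0.16 to 2.38 and Tnfrsf1a from -6.05 to 0.12 without 1 library, and Dffa was 2.78 with the replicate block. Without mitochondrial ribosomal RNA the mean TPM of Mcl1 was 1709 in WT and 1636 in Foxm1 HET. That of Bcl2 was 101 in WT and 9.95 in Foxm1 HET. The causes were not tested. With a median standard error of 2.59 over all genes, a difference of the size of that of Bcl2 (-4.07, SE 2.09) did not pass the test at this spread, and the thin counts of the BH3-only genes limit what can be seen in them.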

Other observations

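Some other genes of the family and its machinery varied widely between libraries. They were chosen after their values were seen, and those values are a description. Bcl2l2, which encodes the survival protein BCL-W, had 0, 0 and 1 reads in WT replicates 1 to 3 and, in the same order, 1202, 3 and 7 reads in the Foxm1 HET replicates, so that nearly all came from a single library. Bmf, a BH3-only gene linked to the cytoskeleton, had 2118, 1 and 0 reads in WT replicates 1 to 3 and, in the same order, 8, 0 and 5 reads in the Foxm1 HET replicates. Neither gene was kept by the filter on low counts.

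Diablo, whose product is released from mitochondria and binds XIAP, had 2, 0 and 1 reads in WT replicates 1 to 3. In the same order it had 760, 8 and 142 reads in the Foxm1 HET replicates. Each Foxm1 HET library was above each WT library, and the WT counts were all below the floor of 3 reads. The genotypes did not overlap in 8.68% of all genes tested, counting both directions. Diablo did not pass an adjusted or unadjusted p of 0.05 in edgeR. Bnip3l, the mitophagy receptor of red cell maturation, had 661, 2322 and 2 reads in WT replicates 1 to 3 and, in the same order, 820, 2611 and 1547 reads in the Foxm1 HET replicates. Birc5, which encodes survivin, a mitotic gene, had 2322, 4 and 217 reads in WT replicates 1 to 3 and, in the same order, 2875, 19 and 1082 reads in the Foxm1 HET replicates. Within a genotype, most of these genes thus ranged from fewer than 10 reads in 1 library to over 100 in another.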
